A study of Mus musculus with 6 samples.

Results

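The Fc gamma receptors of mouse macrophages, Fcgr1, Fcgr3, Fcgr4 and Fcgr2b, were examined together with Fcer1g, the signalling chain that the activating receptors share. The 5 genes were taken by name. Each was read from the probe set that the platform annotation assigns to it, and each had 1 such probe set, so that no choice between probe sets arose. All 5 lay above the intensity filter and were among the 12649 genes tested, out of 19938 genes with a probe set naming them alone.

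Gene expression was measured on 6 Affymetrix arrays of peritoneal macrophages from C57BL/6 mice aged 8 weeks. Of these, 3 arrays are labelled LysMCre/Cre, in which Cre recombinase is expressed from the lysozyme locus of myeloid cells, and 3 are labelled KLF2∆/∆, that is LysMCre/Cre: KLF2 FL/FL, the same Cre with a floxed Klf2 gene. By these labels both groups carry the Cre. All mice had received 2 ml of thioglycolate broth 72 h before the cells were collected, and all cells had been left to attach for 4 h, kept for a further 24 h and then given lipopolysaccharide (LPS) at 100 ng/ml for 6 h. No untreated cells were analysed here, so that the values compare the labelled groups after LPS. By the design text, 3 mice of each genotype were injected as pairs. No sorting step is named, and nothing says which mouse or pair an array holds, so that p-values measure only the spread between these arrays.

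Fc gamma receptors bind the constant part of IgG and let macrophages take up and respond to antibody-coated particles and immune complexes. Fcgr1 (high affinity), Fcgr3 (low affinity) and Fcgr4 (intermediate affinity) are activating receptors: they assemble with the Fcer1g chain, whose tyrosine motif (ITAM) is phosphorylated by Src family kinases and then recruits the kinase Syk. Fcgr2b is the inhibitory member. It carries an inhibitory tyrosine motif (ITIM) of its own, which recruits the lipid phosphatase SHIP encoded by Inpp5d, and the balance between activating receptors and Fcgr2b sets the threshold at which immune complexes trigger a macrophage.

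The windows around the starts of the 4 receptor genes are shown because the activating receptors and Fcgr2b did not shift equally. Sequences are from RefSeq, build GRCm38.p6, 250 bases before to 50 after the annotated start, read 5′ to 3′ on the strand of the gene. The windows are chr1:171018676-171018975 (plus strand) for Fcgr4, chr3:96293920-96294219 (minus strand) for Fcgr1, chr1:171059354-171059653 (minus strand) for Fcgr3 and chr1:170976022-170976321 (minus strand) for Fcgr2b. Capitals mark every match, on either strand, to any of the 5 strings that were searched: CACCC and CCNCNCCC (KLF-type boxes), GAGGAA (the core bound by PU.1-type factors), TTCNNNGAA (GAS-type) and an ISRE-type string, GAAA and GAAA parted by 2 free bases (the form bound by interferon regulatory factors).
Fcgr4: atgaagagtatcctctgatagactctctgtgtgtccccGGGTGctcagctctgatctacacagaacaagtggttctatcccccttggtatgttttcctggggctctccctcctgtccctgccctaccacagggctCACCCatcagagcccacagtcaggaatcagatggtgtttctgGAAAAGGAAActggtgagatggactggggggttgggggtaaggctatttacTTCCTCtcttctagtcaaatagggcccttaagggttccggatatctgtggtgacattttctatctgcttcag
Fcgr1: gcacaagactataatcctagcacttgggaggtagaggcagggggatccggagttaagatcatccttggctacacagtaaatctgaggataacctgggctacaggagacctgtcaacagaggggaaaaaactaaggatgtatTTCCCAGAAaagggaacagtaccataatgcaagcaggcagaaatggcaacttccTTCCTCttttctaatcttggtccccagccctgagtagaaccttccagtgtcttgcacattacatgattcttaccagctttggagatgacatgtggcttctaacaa
Fcgr3: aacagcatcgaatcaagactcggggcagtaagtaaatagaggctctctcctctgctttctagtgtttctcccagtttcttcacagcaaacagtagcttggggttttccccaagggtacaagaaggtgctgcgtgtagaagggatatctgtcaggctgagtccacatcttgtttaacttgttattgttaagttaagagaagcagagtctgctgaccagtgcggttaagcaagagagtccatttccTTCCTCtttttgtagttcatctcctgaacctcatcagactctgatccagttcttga
Fcgr2b: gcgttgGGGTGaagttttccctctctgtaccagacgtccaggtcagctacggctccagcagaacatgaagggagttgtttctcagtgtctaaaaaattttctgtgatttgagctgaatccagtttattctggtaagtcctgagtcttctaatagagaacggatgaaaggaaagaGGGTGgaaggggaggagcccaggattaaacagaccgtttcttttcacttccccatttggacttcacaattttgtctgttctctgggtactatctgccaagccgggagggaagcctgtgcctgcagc
GAGGAA was found once, as its complement TTCCTC, in the window of each of the 3 activating receptors and not in those of Fcgr2b or Fcer1g. It occurs in 28.3% of all 32851 windows in the RefSeq table. Fcgr1 alone among the 5 genes held TTCNNNGAA, as TTCCCAGAA, which reads as a match on both strands (8.3% of all windows). Fcgr4 alone held the ISRE-type string, as GAAAAGGAAA (3.44% of all windows). CACCC was found in the windows of Fcgr4 and Fcgr2b (2 matches each) and Fcer1g (1 match), against 57.5% of all windows, and CCNCNCCC (49.5% of all windows) in none of the 5. No marked strings overlap each other. These are matches of letters in 300 bases and not measured sites. RefSeq lists 2 overlapping windows for Fcgr3, of which the first in its table is shown.

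The targeted gene bears on every direction given here. Klf2 was higher in the arrays labelled KLF2∆/∆, at 9.10, 9.25 and 9.21 against 8.88, 8.97 and 8.94 (log2 intensity), a change of 0.26 ± 0.064 (SE; limma adjusted p = 0.00398; adjusted p = 0.0522 without moderation of the variances). This goes against the label. The sources used here do not say whether the Klf2 probes fall inside the floxed stretch, and probes outside it would check nothing. A change, throughout, subtracts the LysMCre/Cre mean (n = 3) from the mean of the KLF2∆/∆-labelled arrays (n = 3) on the log2 scale. Adjusted p is limma's, by Benjamini-Hochberg over all tested genes. Array medians lay between 7.85 and 7.90, and arrays correlated at 0.994 to 0.997 (Pearson's r over genes, which are not independent replicates) with others of their group and at 0.981 to 0.986 across groups. General macrophage markers varied in level. Adgre1 averaged 12.57 in LysMCre/Cre and 12.81 in KLF2∆/∆-labelled arrays, and Cd68, named after its values were seen, 13.56 and 13.61. Lyz2 was dimmer, at 10.25 in both groups. Aif1, also named after its values were seen, averaged 7.07 and 7.47 and was left out by the intensity filter.

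All 4 receptors were higher in the arrays labelled KLF2∆/∆, and the shared chain Fcer1g did not pass the test. Fcgr4 rose most (1.76-fold), then Fcgr1 (1.38-fold), Fcgr3 (1.17-fold) and, least, the inhibitory receptor Fcgr2b (1.09-fold). Thus 4 of the 5 genes passed an adjusted p of 0.05, all upwards, where 29.8% of all tested genes passed in either direction, 13.6% upwards and 16.2% downwards (1723 higher and 2043 lower). With each array centred on its macrophage markers, a scaling chosen after seeing the data, that split was 751 higher and 2935 lower. With the filter at the 60th percentile it was 1690 higher and 1649 lower. The 5 genes are bright, since 88.7% (Fcgr3) to 99.8% (Fcer1g) of tested genes were no brighter. The shares of all tested genes are therefore not of genes of like level. The median change of the 5 genes was 0.23, against 0.0019 over all tested genes.

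**Figure D1:**
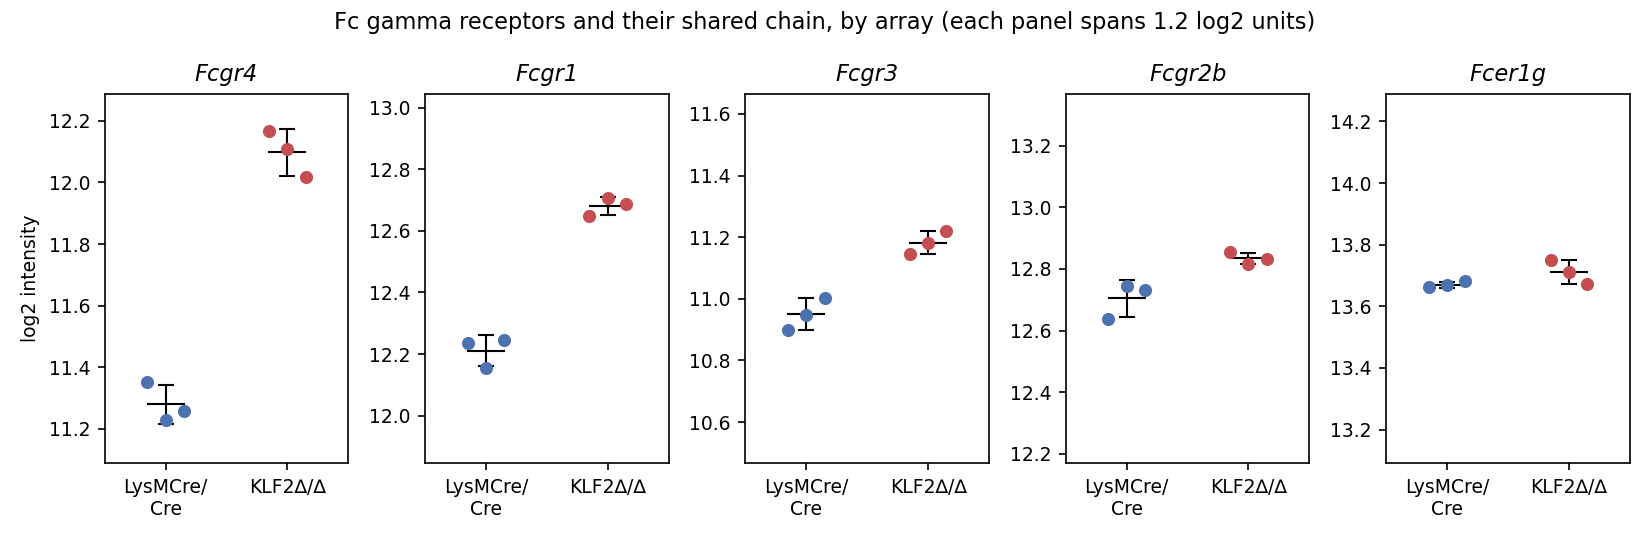
Log2 intensity (vertical axis) of the 5 genes in each array, with 3 LysMCre/Cre arrays (blue) and 3 arrays labelled KLF2∆/∆ (red) per panel; black bars give the mean and SD, and every panel spans the same range in log2 units. The groups are clearly apart for Fcgr4 (11.23 to 11.35 against 12.02 to 12.17) and overlap for Fcer1g.

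Fcgr4, the activating receptor that in mice binds IgG2a and IgG2b and is found on monocytes, macrophages and neutrophils, read 11.35, 11.23 and 11.26 (log2 intensity) on LysMCre/Cre arrays. It read 12.17, 12.11 and 12.02 on those labelled KLF2∆/∆. The groups did not overlap, and the nearest arrays of the groups were 0.67 apart. The change was 0.82 ± 0.047 (SE; 95% interval 0.72 to 0.92; adjusted p = 7.47e-11). On the linear scale the mean intensity went from 2488 ± 110 to 4387 ± 228 (SD). Of all tested genes, 98.8% had a smaller change in size, and Fcgr4 held place 21 among all rises.

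Fcgr1, the high-affinity receptor that binds monomeric IgG and is raised by interferon gamma, read 12.23, 12.15 and 12.25 with LysMCre/Cre alone and 12.65, 12.71 and 12.69 with the KLF2∆/∆ label. Again every array labelled KLF2∆/∆ lay above every LysMCre/Cre array, with a gap of 0.40. The change was 0.47 ± 0.038 (SE; 95% interval 0.39 to 0.55; adjusted p = 7.32e-09).

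Fcgr3, the low-affinity activating receptor that NK cells and neutrophils also carry, had LysMCre/Cre values of 10.90, 10.95 and 11.003 and KLF2∆/∆-labelled values of 11.14, 11.18 and 11.22. The groups were closer, with 0.14 between the nearest arrays. The change was 0.23 ± 0.047 (SE; 95% interval 0.13 to 0.33; adjusted p = 0.000785), near the median of 0.24 among the genes called upwards.

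Fcgr2b, the inhibitory receptor and the one that B cells carry, had LysMCre/Cre values of 12.64, 12.75 and 12.73 and KLF2∆/∆-labelled values of 12.85, 12.82 and 12.83. The groups did not overlap, but only 0.070 parted the nearest arrays, and LysMCre/Cre replicate 1 was the low value. The change was 0.13 ± 0.036 (SE; 95% interval 0.053 to 0.21; adjusted p = 0.00996). This call was lost without LysMCre/Cre replicate 1 (change 0.096, adjusted p = 0.103), without an intensity trend in the variance model (adjusted p = 0.106), without moderation of the variances (adjusted p = 0.0928) and with arrays centred on macrophage markers (change 0.049, adjusted p = 0.642). Fcgr2b and Fcgr3 are known for closely alike extracellular parts, and whether their probe sets share signal was not tested.

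Fcer1g, the ITAM-bearing chain that the activating receptors need for surface expression and signalling, had LysMCre/Cre values of 13.66, 13.67 and 13.68 and KLF2∆/∆-labelled values of 13.75, 13.71 and 13.67. The groups overlapped, because KLF2∆/∆ replicate 3 lay between the LysMCre/Cre arrays. The change was 0.041 ± 0.029 (SE; 95% interval -0.020 to 0.10; adjusted p = 0.341). It passed only after quantile normalization was applied again (change 0.082, adjusted p = 0.0436), and was -0.039 with arrays centred on macrophage markers (adjusted p = 0.767).

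For each of the 4 receptors the exact two-sided permutation test over the arrays gave p = 0.1, the smallest that 3 arrays against 3 allow, and for Fcer1g it gave p = 0.2. The 4 receptors also parted the groups without overlap, as did 40.8% of all tested genes in either direction and 19.3% upwards. No array was high for the whole family: among the arrays labelled KLF2∆/∆, replicate 1 was the highest for Fcgr4, Fcgr2b and Fcer1g and the lowest for Fcgr1 and Fcgr3.

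**Figure D2:**
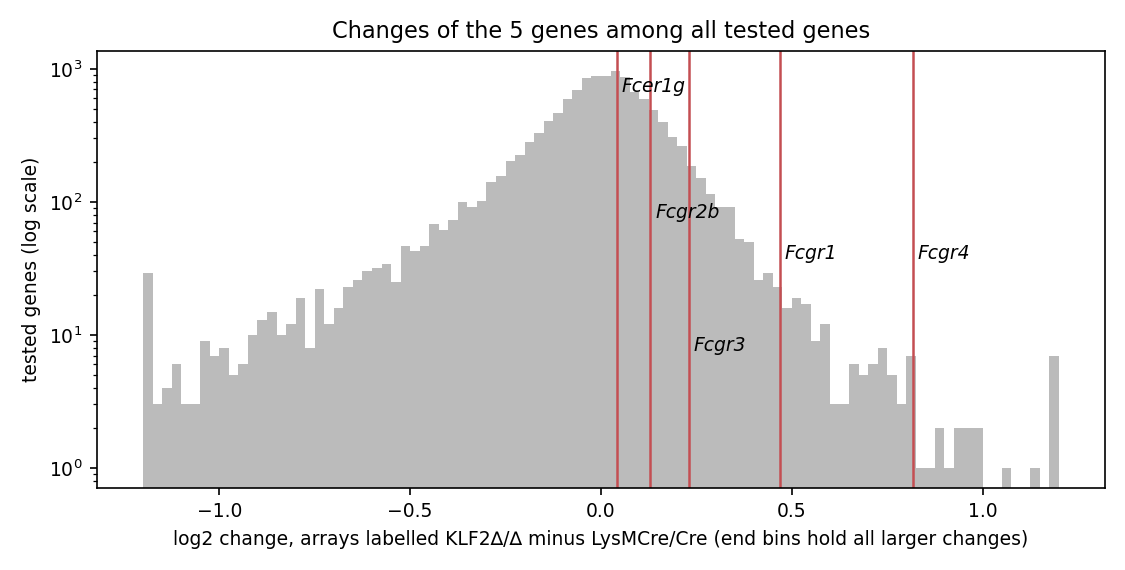
Number of tested genes (vertical axis, log scale) by log2 change between the arrays labelled KLF2∆/∆ and the LysMCre/Cre arrays (horizontal axis), with red lines at the 5 genes. Fcer1g (0.041) and Fcgr2b (0.13) lie in the body of the distribution, and Fcgr1 (0.47) and Fcgr4 (0.82) in its upper tail.

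The activating side was then set against Fcgr2b within each array. Levels of different probe sets cannot be compared. The difference between a pair of genes within an array can be compared between the labelled groups if both probe sets respond alike, which was not tested. Relative to Fcgr2b, Fcgr4 gained 0.69 ± 0.081 (SE; 1.61-fold), Fcgr1 gained 0.34 ± 0.062 (1.27-fold) and Fcgr3 gained 0.10 ± 0.036 (1.07-fold), while Fcer1g moved the other way, by -0.089 ± 0.036. In these log2 values the activating receptors gained on the inhibitory one by unequal amounts, and the chain they depend on did not gain on it.

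Fcgr4 minus Fcgr2b was -1.29, -1.52 and -1.47 on LysMCre/Cre arrays against -0.69, -0.71 and -0.82 on those labelled KLF2∆/∆. The nearest arrays of the groups were 0.47 apart. Fcgr1 minus Fcgr2b was -0.40, -0.59 and -0.49 against -0.21, -0.11 and -0.14, with a gap of 0.20. Fcgr3 minus Fcgr2b was -1.74, -1.80 and -1.73 against -1.71, -1.63 and -1.61, where the gap was only 0.019. Fcer1g minus Fcgr2b was 1.02, 0.92 and 0.95 against 0.90, 0.89 and 0.84, with a gap of 0.025. In each of the 4 differences the groups did not overlap and the exact two-sided permutation p was 0.1, also after Benjamini-Hochberg adjustment over the 4 (0.1), so that no p under 0.05 was possible. Of the other 12648 tested genes, 46.5% differed from Fcgr2b without overlap: 4.58% were higher relative to it and 41.9% were lower, the former share holding all 3 activating receptors and the latter Fcer1g.

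**Figure D3:**
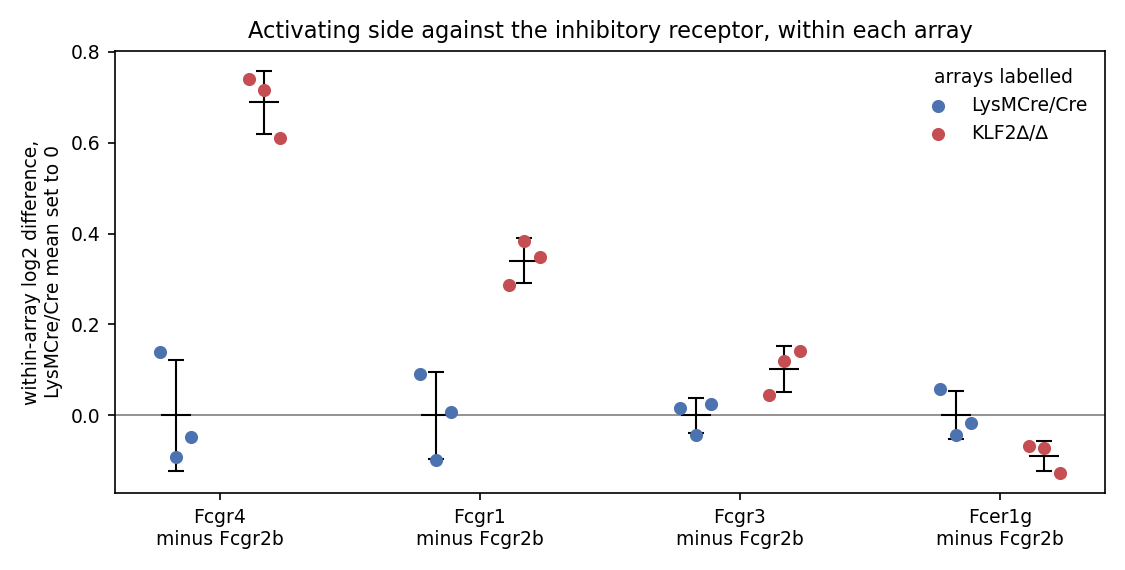
Within-array log2 difference between each gene of the activating side and Fcgr2b (vertical axis), shifted so that the mean of the LysMCre/Cre arrays is 0; points are arrays (blue LysMCre/Cre, red labelled KLF2∆/∆), bars the mean and SD. The red points lie above the blue for Fcgr4, Fcgr1 and, narrowly, Fcgr3, and below them for Fcer1g.

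Among themselves the activating genes also differed. Fcgr4 rose by more than Fcgr1, with a difference between them of 0.35 ± 0.063 (SE), and Fcgr1 rose by more than Fcgr3, with a difference of 0.24 ± 0.042. Relative to the Fcer1g chain, Fcgr4 gained 0.78 ± 0.045, Fcgr1 gained 0.43 ± 0.047 and Fcgr3 gained 0.19 ± 0.051. All 6 pairs of these 4 genes parted the groups without overlap, each with exact permutation p = 0.1.

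The receptor genes Fcgr2b, Fcgr4 and Fcgr3 follow one another on chromosome 1 among protein-coding genes, with Fcer1g farther along, while Fcgr1 lies on chromosome 3. Fcgr4, which rose most, sits between Fcgr2b and Fcgr3, which rose least among the receptors. Of 13 other protein-coding genes from 3 before Fcgr2b to 3 after Fcer1g, a choice made after seeing the data, 7 were tested, with changes from -0.24 to 0.61. Fcrlb, an Fc receptor-like gene on the far side of Fcgr2b, rose by 0.49 ± 0.060 (SE; from 9.41 to 9.89, adjusted p = 2.58e-06). Sdhc, a succinate dehydrogenase subunit gene beyond Fcgr3, changed by -0.17 (adjusted p = 0.00691), and Pcp4l1 by 0.61 (adjusted p = 4.06e-05; 0.0619 without moderation), its LysMCre/Cre mean of 7.36 being under the filter level of 7.49. Neighbours thus went both ways.

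**Figure D4:**
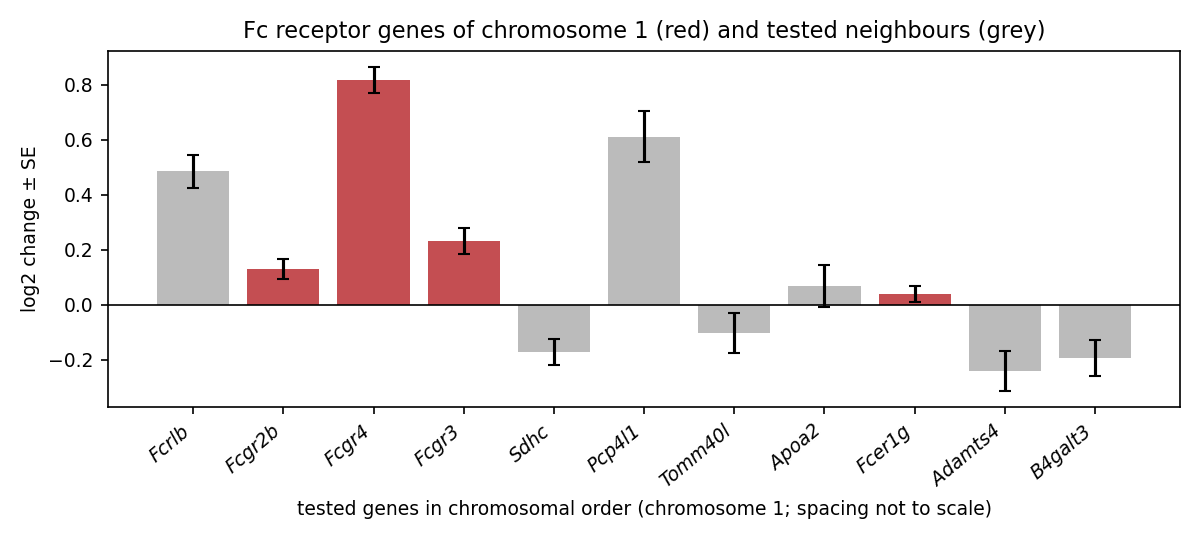
Log2 change (vertical axis, bars with SE) of the tested protein-coding genes around the Fc receptor genes of chromosome 1, in chromosomal order (horizontal axis, spacing not to scale); red bars are Fc gamma receptor genes and Fcer1g, grey bars other genes. Fcgr4 (0.82), Pcp4l1 (0.61) and Fcrlb (0.49) are the highest bars, followed by Fcgr3 (0.23) and Fcgr2b (0.13), and 4 bars lie under 0.

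Genes whose profile over the 6 arrays lay nearest to each receptor were found by the root mean square difference after each gene was centred on its own mean. Nearest to Fcgr4 were Tmem171 (0.039), Chd9 (0.050) and Mtmr10 (0.054), and only 31 genes lay within 0.1 of it. Nearest to Fcgr1 were Slc28a2 (0.022), Rbm47 (0.024) and Hivep2 (0.025), with 373 genes within 0.1. Nearest to Fcgr3 were Mms19 (0.017), Znrf1 (0.019) and Tpcn2 (0.019), and nearest to Fcgr2b were Mcoln1 (0.018), Gabrd (0.021) and Zfp217 (0.022). For these small changes likeness says little, since 2582 and 4788 genes lay within 0.1.

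Genes that carry the receptors' signal were read from lists of the pathway. Of 27 tested kinases, adaptors and effectors downstream of the activating receptors, 12 rose, 3 fell and 12 did not pass (median 0.11). Thus 55.6% were called, against 29.8% of all tested genes. The Src family kinase gene Fgr rose by 0.53 ± 0.052 (SE; 1.45-fold, adjusted p = 1.09e-07), the Rac exchange factor genes Vav1 and Vav3 by 0.42 and 0.51 (adjusted p = 1.57e-06 and 2.08e-06) and the Ras exchange factor gene Sos1 by 0.52 (adjusted p = 2.80e-06). Chosen after its values were seen because it is the kinase that binds the ITAM, Syk rose by 0.19 ± 0.042 (adjusted p = 0.00132). Lyn, a kinase of the same step, had no probe set naming it alone. With arrays centred on macrophage markers, 6 rose and 4 fell.

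The inhibitory arm was read in the same way. Of 14 tested phosphatases, adaptors and ligases that brake ITAM signals, 4 rose, 1 fell and 9 did not pass (median 0.091). The share called was 35.7%, near the 29.8% of all tested genes. Dok3, an adaptor that dampens ITAM signalling, rose by 0.51 ± 0.051 (SE; 1.43-fold, adjusted p = 1.70e-07), and the phosphatase gene Ptpn6 by 0.27 (adjusted p = 5.58e-05). Inpp5d, whose product SHIP acts at Fcgr2b, rose by 0.19 ± 0.069 (adjusted p = 0.0472), Csk, the kinase that restrains Src family kinases, by 0.17 (adjusted p = 0.0160), and the phosphatase gene Ptpn11 changed by -0.16 (adjusted p = 0.0235). These last 3 calls did not hold without some single arrays. Inpp5d lost its call without LysMCre/Cre replicate 1 or 3 (adjusted p = 0.0513 and 0.298) and without KLF2∆/∆ replicate 2 or 3 (0.162 and 0.0566). Csk lost it without LysMCre/Cre replicate 1, 2 or 3 (0.0587, 0.0543 and 0.0777) or KLF2∆/∆ replicate 3 (0.0531), and Ptpn11 without LysMCre/Cre replicate 2 or 3 (0.0775 and 0.125) or KLF2∆/∆ replicate 1 or 3 (0.0680 and 0.0641). Inpp5d also lost its call with median centring (0.0548), array weights (0.0706) or macrophage centring (0.267). It did so too without an intensity trend (0.0690), moderation (0.220) or filter (0.0711). Ptpn11 also lost its call with median centring (0.0613) and without an intensity trend (0.0557) or moderation (0.0995), and Csk with macrophage centring (0.290). The count of calls was 3 without LysMCre/Cre replicate 1 or 2 or KLF2∆/∆ replicate 3, 2 without LysMCre/Cre replicate 3, and 3 with arrays centred on macrophage markers. It was also 3 with median centring, without an intensity trend and without moderation.

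Other receptors listed as inhibitory ITIM receptors went both ways. Whether each product, such as that of mouse Cd33, carries the motif was not examined. Of 15 tested, 6 rose, 4 fell and 5 did not pass (median 0.041), so that 66.7% were called, against 29.8% of all tested genes. Cd72 rose by 0.94 ± 0.054 (SE; 1.92-fold, adjusted p = 6.24e-11) and Pirb by 0.26 (adjusted p = 6.55e-05), while the sialic acid receptors Siglece and Cd33 changed by -0.87 ± 0.075 and -0.45 (adjusted p = 2.04e-08 and 4.00e-07). The Pirb call was lost without moderation of the variances (adjusted p = 0.0552), where only 1 of the list rose and 3 fell.

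Receptors that share the Fcer1g chain were listed with other ITAM adaptors. Of 7 tested, 28.6% were called, against 29.8% of all tested genes: the immunoglobulin-like receptor gene Lilra6 rose (0.34, adjusted p = 0.00211), the lectin gene Clec4d fell (-0.19, adjusted p = 0.00598) and 5 did not pass. The Lilra6 call was lost without moderation (adjusted p = 0.0911) and with macrophage centring (0.0523), and that of Clec4d without an intensity trend (0.0542) or moderation (0.181). Tyrobp, the other main ITAM adaptor of myeloid cells and named after its values were seen, changed by 0.068 ± 0.034 (SE; adjusted p = 0.15). Other receptors for immunoglobulin Fc parts and Fc receptor-like proteins made a list of 14. Of 3 tested, Fcrlb rose as above and 2 did not pass, so that 33.3% were called, against 29.8% of all tested genes.

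Of 27 tested genes of the phagocytic cup, 8 rose, 2 fell and 17 did not pass (median 0.064), so that 37% were called, against 29.8% of all tested genes. Myo10, a motor of membrane protrusions, changed by -0.29 ± 0.049 (SE; adjusted p = 9.10e-05), Elmo1, a Rac activator, rose by 0.31 (adjusted p = 0.000258), the adaptor gene Gab2 by 0.23 (adjusted p = 0.000396) and the Arp2/3 subunit gene Arpc5 by 0.21 (adjusted p = 0.00192). With arrays centred on macrophage markers, 1 rose and 3 fell, and Gab2 and Arpc5 lost their calls (adjusted p = 0.0518 and 0.218). Arpc5 also lost it without moderation (0.169), where only 2 of the list rose and 1 fell.

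**Figure D5:**
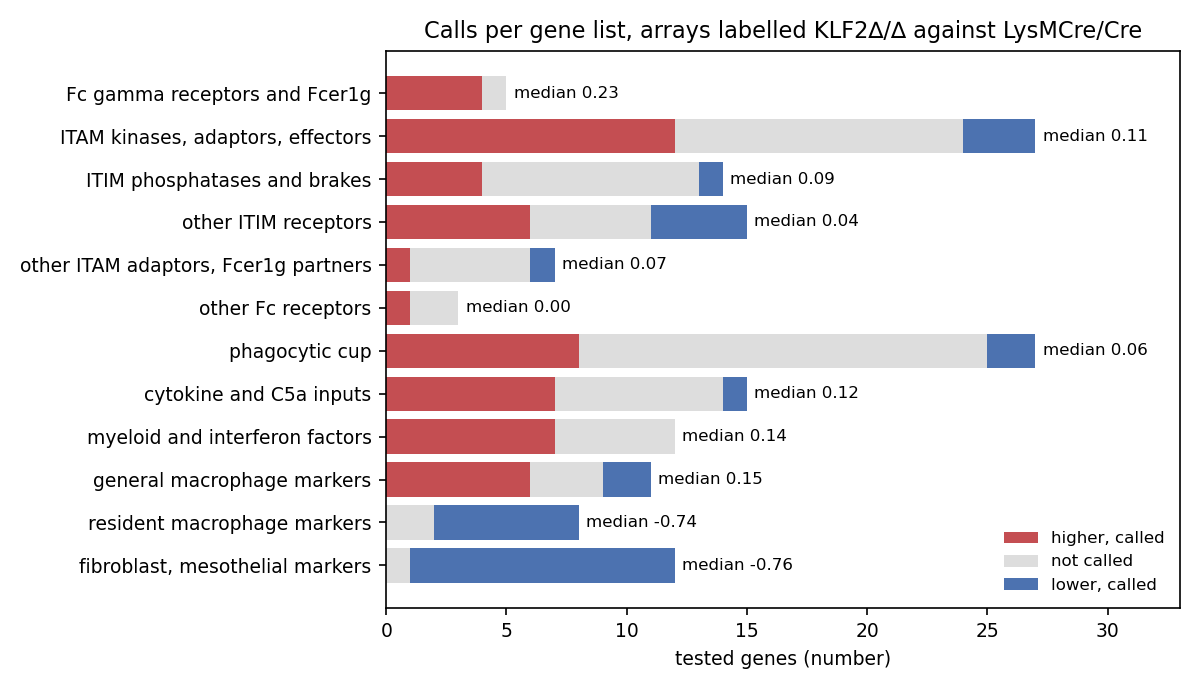
Number of tested genes per list (horizontal axis) that were higher (red), not called (grey) or lower (blue) in the arrays labelled KLF2∆/∆, with the list's median log2 change. Upward calls outnumber downward ones in most lists, the ITAM effectors and the ITIM brakes alike. The list of other ITAM adaptors and Fcer1g partners has as many of each. All calls are downwards for resident macrophage and for fibroblast and mesothelial markers.

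Inputs known to set Fc gamma receptor levels were read next. Of 15 tested cytokine and C5a pathway genes, 7 rose, 1 fell and 7 did not pass (median 0.12). Calls made up 53.3% of them, against 29.8% of all tested genes. Il10, which raises Fcgr1 on human monocytes, rose by 1.23 ± 0.071 (SE; 2.34-fold, adjusted p = 7.45e-11), the kinase gene Jak1 by 0.20 (adjusted p = 0.000208) and Il13ra1 by 0.28 (adjusted p = 0.000298), while Il4ra, the receptor chain for interleukins that raise Fcgr2b, changed by -0.39 ± 0.053 (adjusted p = 8.11e-06). Il13ra1 lost its call without moderation (0.0863) and Jak1 with macrophage centring (0.151). With that centring 3 of the list rose and 4 fell, and without moderation 4 rose and 1 fell. Ifng itself, named after its values were seen, changed by 0.12 and did not pass (adjusted p = 0.248).

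Of 12 tested myeloid and interferon transcription factors, 7 rose, none fell and 5 did not pass (median 0.14). This made 58.3% called, against 29.8% of all tested genes. Spi1, which encodes PU.1, the factor that drives Fc gamma receptor genes in myeloid cells, rose by 0.23 ± 0.032 (SE; 1.17-fold, adjusted p = 1.45e-05), Stat2 by 0.22 (adjusted p = 3.19e-05), Irf8 by 0.30 (adjusted p = 0.000227) and Irf1 by 0.21 (adjusted p = 0.000304). The 7 calls became 4 without LysMCre/Cre replicate 1 and without LysMCre/Cre replicate 2, and 1 with arrays centred on macrophage markers, where Spi1, Stat2 and Irf1 lost theirs (adjusted p = 0.118, 0.129 and 0.0827). Irf8 lost its call without moderation (0.0578).

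The adherent cells were not a single type, and fewer cells of a type cannot be told apart from less RNA per cell. General macrophage markers, from which Fcgr1 was left out, rose in 6 of 11 cases and fell in 2. Called were 72.7%, against 29.8% of all tested genes, and the markers' median change was 0.15. Their summed linear intensity was 52062 to 52504 for LysMCre/Cre and 55151 to 56584 for KLF2∆/∆-labelled arrays, here and below over all markers of a list with a probe set. Mertk, a receptor for apoptotic cells, rose by 0.29, Adgre1 by 0.24 and the complement genes C1qb and C1qc by 0.23 and 0.21. Cd14, the LPS co-receptor gene, and the integrin gene Itgam, both named after their values were seen, changed by -0.26 and -0.21 (adjusted p = 0.00019 and 0.000734). With arrays centred on these markers 1 rose and 3 fell, and Adgre1, C1qb and C1qc lost their calls (adjusted p = 0.0528, 0.119 and 0.169). The 11 tested markers changed by -0.26 (Cd14) to 0.29 (Mertk). Fcgr4, Fcgr1, Fcgr3 and Fcgr2b changed by 0.82, 0.47, 0.23 and 0.13. The median of the 11 markers in each array was 0.080 higher in the arrays labelled KLF2∆/∆. Relative to it, Fcgr4, Fcgr1 and Fcgr3 rose by 0.74, 0.39 and 0.15 and were still called, while Fcgr2b rose by 0.049 and was not. The part of macrophage share in the receptor values was not tested.

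Markers of other cells differed between the labelled groups. Resident peritoneal macrophage markers fell in 6 of 8 cases (median -0.74, 75% called against 29.8% of all tested genes). Sums of the resident markers were 8611 to 8945 against 3502 to 3752. Among them Prg4 changed by -4.37 (adjusted p = 2.00e-18) and Vsig4, a complement receptor gene, by -1.52 (adjusted p = 6.06e-13). Fibroblast and mesothelial markers fell in 11 of 12 (median -0.76, 91.7% called), with sums of 20944 to 21072 against 11563 to 12787. Sparc, a matrix protein gene, changed by -0.88 (adjusted p = 2.22e-12) and Pdgfra, a growth factor receptor gene, by -1.21 (adjusted p = 5.89e-12). Their part in the Fc gamma receptor values was not tested.

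Cells other than macrophages that carry Fc gamma receptors were checked by their own markers. Of 12 neutrophil markers, which bear on Fcgr4 and Fcgr3, 7 were tested and 3 rose: Mmp8 by 0.74, Csf3r by 0.38 and S100a9 by 0.26. Thus 42.9% of the tested markers were called, against 29.8% of all tested genes. Sums over the 12 were 6002 to 6210 against 7294 to 7640, while the defining Ly6g, S100a8, Cxcr2, Ngp and Ltf lay below the filter. These sums are weighted towards Csf3r, the brightest of the markers (mean 11.92 for LysMCre/Cre and 12.30 for KLF2∆/∆-labelled arrays). S100a9 lost its call without LysMCre/Cre replicate 1 or 2 (adjusted p = 0.131 and 0.103) and without KLF2∆/∆ replicate 2 (change 0.14, adjusted p = 0.227). None of 4 tested B cell markers, which bear on Fcgr2b, passed (sums of 1327 to 1377 and 1378 to 1438), and Cr2 lay below the filter. Ms4a1, which encodes the B cell antigen CD20 and is named after its values were seen, was left out by its mean over all arrays but went from 7.25 ± 0.076 to 7.65 ± 0.0059 (SD), and with no filter it was the 1 B cell marker called, upwards. None of 3 tested T and NK cell markers, which bear on Fcgr3, passed (sums of 1259 to 1337 and 1323 to 1380), and Ncr1, Klrb1c and Klrd1 lay below the filter.

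Mast cells also use Fcer1g and Fcgr3. All 4 tested mast cell markers fell (Cpa3 by 0.52 on the log2 scale, with Tpsb2 at -0.42, Hdc at -0.21 and Gata2 at -0.21), with sums of 3319 to 3445 and 2847 to 2958, while Cma1, Kit and Fcer1a lay below the filter. Among all tested genes 16.2% were called lower. Only Cpa3 and Tpsb2 were called without LysMCre/Cre replicate 1 (Hdc adjusted p = 0.0505, Gata2 0.112). Hdc and Gata2 lost their calls without moderation too (0.0748 and 0.206). Gata2 also lost its call without LysMCre/Cre replicate 2 or 3 (0.152 and 0.0517) and without KLF2∆/∆ replicate 1 or 2 (0.104 and 0.180, the last with a change of -0.14). Of 6 tested dendritic cell markers 50% were called, against 29.8% of all tested genes. Tcf4 rose (0.29) and Fscn1 and Ccr7 fell (-0.79 and -0.23), with sums over the list of 7489 to 7788 and 6327 to 6576. The single tested eosinophil marker, Siglecf, named after its values were seen, did not pass (-0.063, adjusted p = 0.550; sums of 784 to 813 and 812 to 877). The part of these cells in the receptor values was not tested.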

How the data were processed

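The authors deposited a table of log2 values with 1 entry per probe set for each array. A second deposited table holds linear intensity, called untransformed signal per the file headers; its log2 values differ from the first by at most 5.1e-05. Expression Console and RMA are named in the submitters' processing notes. RMA in general corrects background, quantile-normalizes and summarizes probes. It makes array distributions alike, so that a shift shared by most genes is not visible, and it compresses large ratios of dim probe sets. The sources used here give no versions, filters, genome build or scan dates, so batches were not tested, and the number of arrays limits the precision.

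Of 35557 probe sets, the 6613 with the lowest numbers, none annotated, were treated as controls. Of the remaining 28944, 21789 name 1 gene, 1621 several and 5534 none. Gene identifiers gave current RefSeq symbols (GRCm38.p6), matching 21698. For a gene with several single-gene probe sets the brightest was kept. Genes whose mean lay under log2 7.49, the 40th percentile of non-control probe sets, were not tested. The test was limma 3.58.1 (R 4.3.3; lmFit, eBayes with an intensity trend, two-sided, threshold 0.05), tested on simulated data first. Exact permutation tests over arrays were added. Alternatives covered the replicate block, scaling, array weights, variance model, filter, probe sets, source table, threshold and single arrays. Promoter strings were searched in RefSeq windows. Figures were drawn with matplotlib 3.10.9.

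The members and lists were chosen with earlier results of these data known. Named genes are the 5 members, Klf2, Lyz2, called list members (the 4 with the smallest p, or all where 5 or fewer were called) and the 3 tested genes nearest in profile to each called member. Genes outside this rule are marked in the text.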

Additional observations from a re-analysis of the deposited data

How the results depend on the processing

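Fcgr4, Fcgr1 and Fcgr3 kept their direction and call under all 19 alternatives, with changes of 0.74 to 0.86, 0.39 to 0.49 and 0.15 to 0.26 and highest adjusted p of 0.00758, 0.00767 and 0.0369. Fcgr2b kept its direction under all 19 and its call under 15. The exceptions were no intensity trend and no moderation of the variances (change 0.13 in both), arrays centred on macrophage markers, an alternative chosen after seeing the data (0.049), and the fit without LysMCre/Cre replicate 1; over fits without single arrays its change ran from 0.096 to 0.15. Fcer1g gained a call when quantile normalization was applied again (0.082) and turned to -0.039 with macrophage centring; without single arrays it ran from 0.021 to 0.061. Relative to Fcgr2b, Fcgr4, Fcgr1 and Fcgr3 stayed higher under all 12 alternatives computed, with 0.64 to 0.76, 0.29 to 0.39 and 0.081 to 0.13. Fcer1g stayed lower, at -0.11 to -0.059 without single arrays and -0.035 after quantile normalization. Median centring, the choices of probe sets and the replicate block cannot move these within-array differences. Those alternatives therefore do not test them. Lyz2, which carries the Cre and changed by 0.0050, ran from -0.033 to 0.044 without single arrays and was -0.075 with macrophage centring. Apoa2, a neighbour of Fcer1g chosen after its values were seen, changed by 0.069 (adjusted p = 0.569), but by -0.012 without LysMCre/Cre replicate 2 and with macrophage centring. Of 12649 genes 3766 were called, and 2124 without moderation of the variances. The cause of these differences was not tested.

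With the replicate number as a block, 3824 genes and the same count of 4 members were called, and no call of a member changed. The design text speaks of pairs of mice without tying them to replicate numbers. Deviations from the group means correlated at -0.091, 0.12 and -0.049 across genes for numbers 1, 2 and 3. With 3 arrays per group, such weak correlations cannot decide whether equal numbers mark pairs. Signal over background does not limit the 5 genes, which all lie above the filter level of 7.49 in every array, whereas markers below it cannot be ordered. At the upper end, 99.8%, 98.2% and 97.3% of tested genes were no brighter than Fcer1g, Fcgr2b and Fcgr1. Whether changes are compressed at such levels was not tested.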
